A study of Mus musculus with 9 samples.

Results

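The Bcl2 family decides at the mitochondrial outer membrane whether a cell enters apoptosis, the programmed form of cell death. The 10 members described here were taken by gene symbol from the count table of 19991 genes. They comprise 6 pro-death genes (Bax, Bak1, Bok, Bad, Bid and Bcl2l11) and 4 pro-survival genes (Bcl2, Bcl2l1, Bcl2l2 and Mcl1). All 10 were found and all 10 passed the filter on low counts, among 15834 genes tested. The rule used no measured value, but the members were chosen with earlier results of these data known.

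The study measured messenger RNA in whole testis after inhibition of KIFC1, a motor protein of the kinesin family that bundles microtubules in spindles and in the developing sperm head. All mice were of the ICR outbred stock and 8 weeks old, and no group carried an engineered allele. Control mice were injected with PBS, and the other groups with 1 µM AZ82 or 50 µM CW069, both KIFC1 inhibitors known by code names. Each group had 3 libraries, numbered 1 to 3. The labels do not say whether the libraries came from separate animals. The p-values thus rest on the spread within groups of 3 libraries, part of which may be technical. The fit estimates that spread once for the 3 groups together. The route and volume of injection and the time from injection to sampling are not given in the sources used here.

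Pro-survival proteins of the family hold the effectors Bax and Bak1 in check, and effectors that escape oligomerise and open the outer membrane, which releases cytochrome c. The BH3-only proteins Bad, Bid and Bcl2l11 (known as Bim) bind into a groove of the pro-survival proteins through a short helix, the BH3 motif, and some also activate the effectors directly. In the testis the family is known for the wave of germ cell death in young males, which needs Bax, and for Bcl2l2 (known as Bcl-w), which adult spermatogenesis requires.

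The BH3 motif is the sequence that members of both classes share, and its coding sequence is shown for that reason. Each line gives 39 coding bases from a GENCODE M21 transcript of the mouse reference genome, 5′ to 3′ on the coding strand. Capitals mark the codon of the conserved leucine and the adjacent codons of the conserved glycine and aspartate.
Bax: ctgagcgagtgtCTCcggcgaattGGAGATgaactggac
Bak1: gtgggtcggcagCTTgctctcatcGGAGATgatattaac
Bok: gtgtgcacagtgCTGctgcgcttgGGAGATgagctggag
Bad: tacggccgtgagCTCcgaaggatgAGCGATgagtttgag
Bid: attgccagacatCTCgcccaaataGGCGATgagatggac
Bcl2l11: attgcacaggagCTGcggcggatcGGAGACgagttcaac
Bcl2: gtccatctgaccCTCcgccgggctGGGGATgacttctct
Bcl2l1: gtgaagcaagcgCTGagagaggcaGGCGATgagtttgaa
Bcl2l2: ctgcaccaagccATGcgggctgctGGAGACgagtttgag
Mcl1: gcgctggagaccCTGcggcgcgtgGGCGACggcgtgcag

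The stretches were found by a search that required the aspartate, so its codon in all 10 members was set by the search. The search allowed only leucine or methionine in the leucine position and only glycine or serine in the glycine position. Bad carried a serine codon (AGC) in the glycine position, and Bcl2l2 a methionine codon (ATG) in the leucine position. The leucine lay at residue 63 of 192 in Bax and at residue 76 of 209 in Bak1. It lay at residue 150 of 196 in Bcl2l11, near the end of the protein, and at residue 46 of 193 in Bcl2l2, near its start. The members are spread over 8 chromosomes: Bok and Bcl2 on chromosome 1, Bcl2l11 and Bcl2l1 on chromosome 2, Mcl1 on 3, Bid on 6, Bax on 7, Bcl2l2 on 14, Bak1 on 17 and Bad on 19.

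Libraries held 13856070 to 18102593 counts. Control 3 stood apart in late germ cell transcripts: the 12 markers of elongating spermatids summed to 10087 CPM there (CPM being read counts scaled to a common library total), against 17548 to 24662 CPM in the other 8 libraries. Control 1 was the highest library for macrophage markers and Control 3 the lowest of the Control libraries, values that return below. Markers of germ cells, Sertoli cells and Leydig cells were present in all 9 libraries.

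Reads could be shared with overlapping genes for 6 members. Bad shares 524 exon bases (20.5% of its exon length) with Gpr137, Bid 628 (17.7%) with Bcl2l13, itself a distant relative, and Bak1 437 and 177 bases (18.2% and 7.35%) with Ggnbp1 at a pair of positions, all on the opposite strand. The library kit keeps strand, but whether the counting used it is not given. For these 3 members, reads from the shared bases may thus have been counted for the member, for its partner or for neither. Ggnbp1 stood at 448 to 543 CPM over the 9 libraries. Bcl2 overlaps an antisense transcript over 558 bases (6.09%), and Bax and Bcl2l2 share 192 and 594 bases (12.2% and 13.3%) with a predicted gene on their own strand, none of which is a row of the table. Bcl2l11, Bcl2l1, Mcl1 and Bok have no such overlap.

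In Control testis the pro-survival genes Bcl2l1 (known as Bcl-x) and Mcl1 were the most abundant members. Per kilobase of exon, Bcl2l1 stood at 23.0 ± 1.68 CPM and Mcl1 at 22.2 ± 0.454 CPM (SD, n = 3 Control libraries), and their libraries overlapped. Bad followed with 12.9 ± 1.17 CPM per kb, Bcl2l2 with 7.72 ± 0.183, Bak1 with 5.83 ± 0.328 and Bax with 4.34 ± 0.274, each clear of its neighbours in the order. Then came Bcl2l11 with 1.91 ± 0.750, Bok with 1.78 ± 0.370 and Bid with 1.19 ± 0.338 CPM per kb, where each overlapped the next. Bcl2, the gene that gave the family its name, was last with 0.123 ± 0.0210 CPM per kb. Set among all genes tested, Bcl2l1 lay at the 83.3rd percentile of the Control level per kb, Bax at the 49.2nd and Bcl2 at the 1.06th.

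The order depends little on which length is used, but the gaps between members do depend on it. With the longest coding transcript in place of all exons, Bax stood at 6.22 and Bak1 at 5.88 CPM per kb, which swaps these neighbours, and Bcl2l1 at 41.02 against 22.2 for Mcl1, so that the leading pair no longer lay close together. Bad rose to 21.5 CPM per kb, close under the 22.2 of Mcl1. The other ranks were the same.

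**Figure D1:**
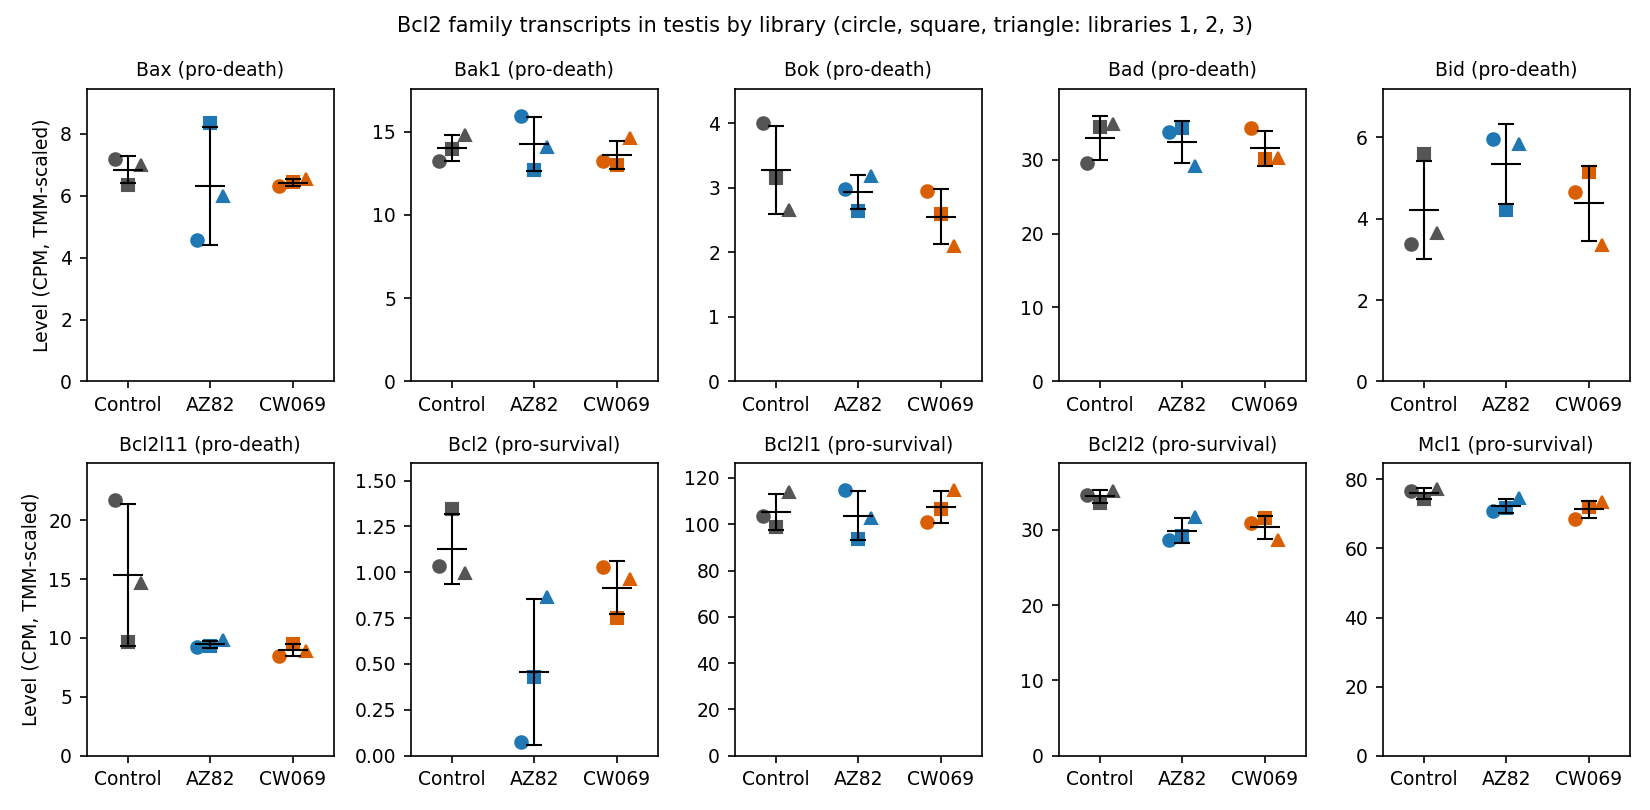
Level of each member in CPM (vertical axis, linear from 0) in the Control, AZ82 and CW069 libraries; circles, squares and triangles are libraries 1, 2 and 3, and black bars give the mean ± SD of 3 libraries. Bcl2l11 ran from 9.69 to 21.7 CPM in Control and from 8.49 to 9.81 CPM after either inhibitor, while Bcl2l2 lay lower in every inhibitor library than in every Control library.

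The comparisons with Control ask whether either KIFC1 inhibitor moved the transcripts of this death switch. No member passed an adjusted p of 0.05 in edgeR's quasi-likelihood test with Benjamini-Hochberg adjustment over all genes, after AZ82 or after CW069. The members nearest to it were all lower than in Control: Bcl2l11 and Bcl2l2 with both inhibitors, and Bcl2 with AZ82. The effectors Bax and Bak1 and the abundant Bcl2l1 lay within 8% of Control in the fit with both inhibitors.

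After AZ82, 3 of 10 members had an unadjusted p under 0.05, where 8.84% of all genes tested reached that p. All 3 were lower and 0 were higher, against 4.79% and 4.04% of all genes. Without Control 2 the split was 2 lower and 1 higher, the higher member being Bid. The groups did not overlap for 2 members, both lower (Bcl2 and Bcl2l2), as was the case for 8.62% of all genes in that direction and 6.65% as higher genes. The adjusted threshold was passed by 0 genes in edgeR (0% of those tested) against 1399 at the unadjusted p, by 6 in DESeq2 and by 1 in limma-voom, none of them a member. The 3 were Bcl2l11 of the 6 pro-death members, and Bcl2 and Bcl2l2 of the 4 pro-survival members. Log2 fold changes were below 0 for 4 of 6 pro-death members (median -0.07) and for 4 of 4 pro-survival members (median -0.14), against 50.3% of all genes (median -0.0010).

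After CW069, 2 of 10 members had an unadjusted p under 0.05, where 7.34% of all genes reached it. They were Bcl2l11 and Bcl2l2, both lower, and 0 were higher, against 3.71% and 3.63% of all genes. The groups did not overlap for 3 members, all lower (Bcl2l11, Bcl2l2 and Mcl1), against 7.24% of all genes as lower and 6.13% as higher genes. Again 0 genes (0%) passed the adjusted threshold in edgeR against 1162 at the unadjusted p, while DESeq2 called 28 and limma-voom 0, none a member. The log2 fold change was below 0 for 5 of 6 pro-death members (median -0.08) and 3 of 4 pro-survival members (median -0.14), against 51% of all genes (median -0.0038). Both comparisons use the same 3 Control libraries, so a Control library that is high or low enters both.

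The fit bounds the difference for most members, as it does for most genes tested. The 95% interval of the log2 fold change lay within 1.5-fold of Control in either direction for 6 of 10 members after AZ82 (Bax, Bak1, Bad, Bcl2l1, Bcl2l2 and Mcl1). It did so for 10901 of all 15834 genes. After CW069 it did so for 7 members, the same 6 and Bid, and for 11151 of all genes. Bid passed narrowly, with an interval of 0.715-fold to 1.49-fold. The members not bounded in this way with one or both inhibitors were Bcl2l11, Bok, Bid and Bcl2, all under 2 CPM per kb in Control. Bok, Bid and Bcl2 were also the lowest members in CPM, but Bcl2l11 was not. It stood at 9.69 to 21.7 CPM in Control, above Bax at 6.35 to 7.18 CPM, which was bounded. Bcl2l11 had the largest spread of the 10 members in Control, an SD of 0.56 on the log2 scale.

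**Figure D2:**
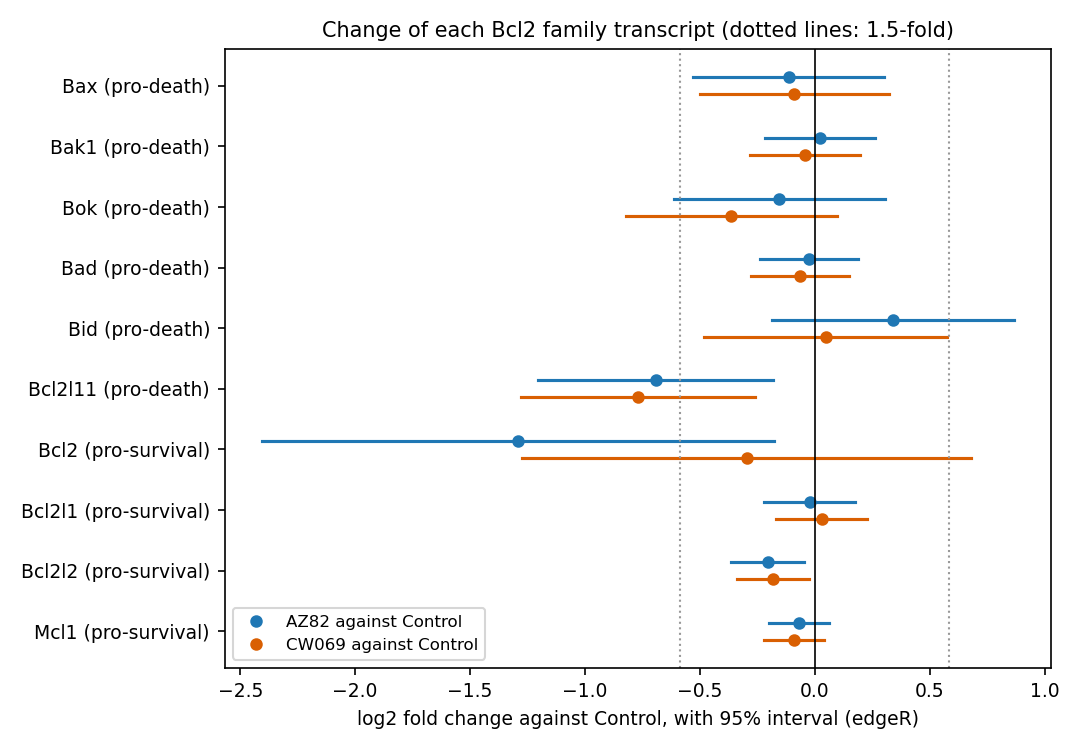
Log2 fold change against Control (horizontal axis) with its 95% interval from edgeR for each member, blue for AZ82 and orange for CW069; dotted lines stand at a 1.5-fold difference in either direction. Intervals that lie below 0 belong to Bcl2l11 and Bcl2l2 with both inhibitors and to Bcl2 with AZ82, and none of these passed the adjusted threshold.

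Bcl2l11, the BH3-only activator, had the smallest p with either inhibitor. It stood at 21.7, 9.69 and 14.6 CPM in Control 1, 2 and 3. After AZ82 it stood at 9.24, 9.35 and 9.81 CPM, and after CW069 at 8.49, 9.51 and 8.92 CPM. The 6 inhibitor libraries thus lay close together, while the Control libraries were spread from their level upward: Control 2 lay between AZ82 2 and AZ82 3, so the AZ82 and Control groups overlapped, and the CW069 libraries lay just under Control 2.

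For Bcl2l11 the log2 fold change was -0.69 ± 0.23 (SE) after AZ82, a level 38.1% lower (95% interval -1.20 to -0.18; edgeR adjusted p = 0.554, unadjusted 0.0128). After CW069 it was -0.77 ± 0.23, a level 41.3% lower (-1.28 to -0.26; edgeR adjusted p = 0.537, unadjusted 0.00692). In raw reads, 685 counts in Control stood against 394 after AZ82 and 420 after CW069, and the ratio of summed CPM was 0.624 (counting interval 0.549 to 0.707) and 0.591 (0.522 to 0.668). Counting error was thus small beside the spread between the Control libraries. That spread, an SD of 0.56 on the log2 scale, was the largest of the 10 members in Control, where the median over all genes tested was 0.14. In the inhibitor groups the SD of Bcl2l11 was 0.04 and 0.08, under the all-gene median of 0.12 in each. The SE and p of the fit use 1 spread for the 3 groups, in which these unequal spreads are pooled.

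Which Control libraries are included moves the size of the difference. Without Control 1 it was -0.36 for AZ82 (unadjusted p = 0.0590) and -0.44 for CW069 (0.0264). Without Control 2 it was -0.94 for AZ82 and -1.01 for CW069, with an edgeR adjusted p = 0.185 and 0.0899. Without Control 3 it was -0.73 and -0.80. The direction was the same in each of the 18 alternatives run for either inhibitor, and the unadjusted p stayed under 0.05 in 17 of them for AZ82 and 18 for CW069.

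**Figure D3:**
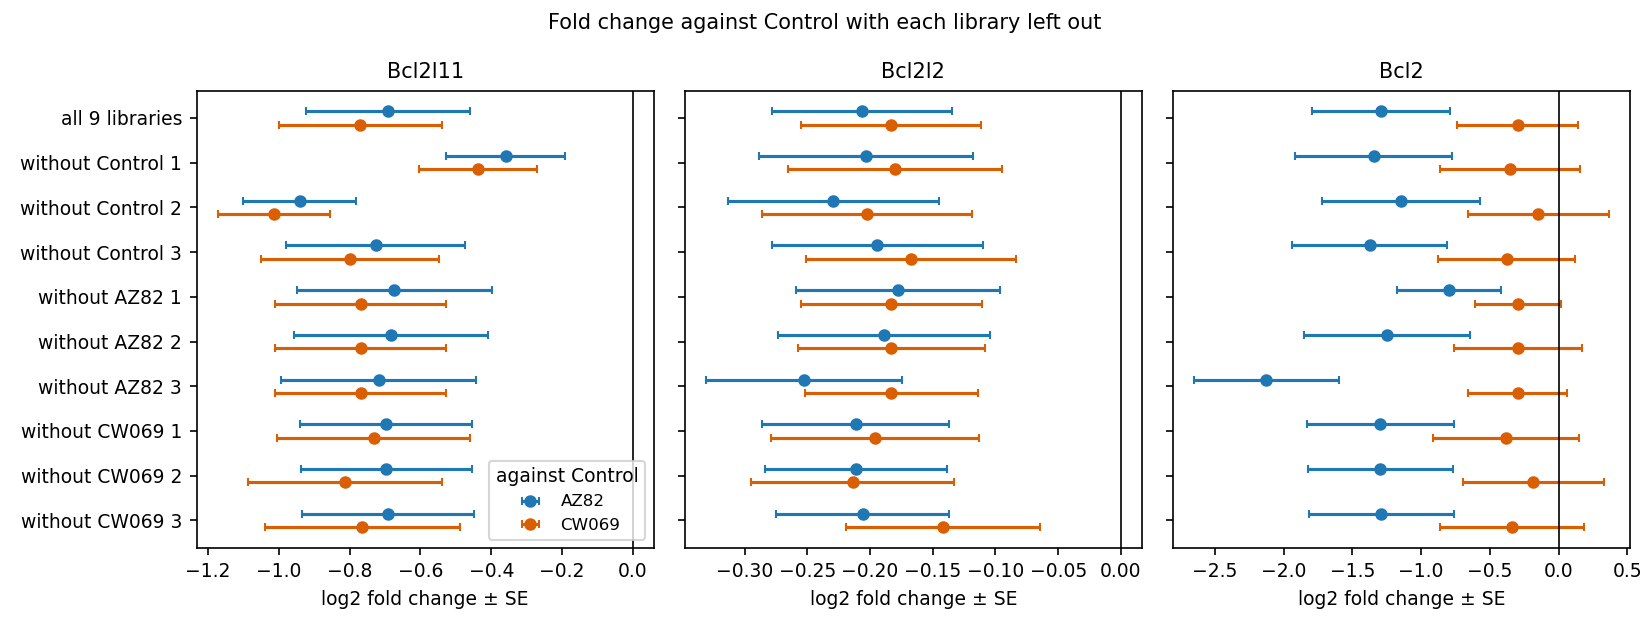
Log2 fold change ± SE against Control (horizontal axis, a different range in each panel) for Bcl2l11, Bcl2l2 and Bcl2 with all 9 libraries and with each library left out in turn, blue for AZ82 and orange for CW069. Bcl2l11 turned on Control 1 and Control 2 (-0.36 to -1.01), Bcl2l2 stayed between -0.25 and -0.14, and Bcl2 after AZ82 ran from -2.13 to -0.80.

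In summed level most marker lists were highest, among the Control libraries, in Control 1, where Bcl2l11 was highest too. They include elongating spermatids, Sertoli cells, peritubular myoid cells, T and B cells and epididymal epithelium, besides the lists given here. Those of spermatogonia, spermatocytes, round spermatids and Leydig cells were highest in another Control library. The summed level of 12 macrophage markers was 272 CPM in Control 1, 231 in Control 2 and 210 in Control 3, against 165 to 224 CPM after AZ82 and 167 to 221 CPM after CW069. Control 1 was the highest library for 9 of the 12, and none of the 12 was at 0. Control 2, the lowest Control library for Bcl2l11, was not the lowest for these markers. In Control 1, 2 and 3, the 5 red blood cell markers summed to 108, 88.8 and 49.2 CPM (57.9 to 97.0 CPM after either inhibitor), and the 6 endothelial markers to 62.8, 59.6 and 51.0 CPM (55.1 to 63.6 CPM). The 7 adipocyte markers summed to 29.0, 19.96 and 21.6 CPM, the Control order of Bcl2l11, but to 17.5, 47.1 and 19.9 CPM in AZ82 1, 2 and 3 and to 17.6 to 22.9 CPM after CW069. Of these 3 lists, Hba-a2 was at 0 in 6 libraries, and Cidec and Lep in 1 each. The part of such cells in the Bcl2l11 difference was not tested. In RNA from whole testis, fewer cells that express a gene and less of its RNA per cell cannot be told apart, here and for every member.

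The nearest tested genes on either side of Bcl2l11 on chromosome 2 gave no matching difference. Genes that did not pass the filter on low counts were left out of this search. Bub1, a spindle checkpoint kinase, had a log2 fold change of -0.09 ± 0.12 after AZ82 and 0.0020 ± 0.12 after CW069. Spdye4c had 0.04 ± 0.13 and -0.17 ± 0.13.

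The 3 genes with the profile nearest to that of Bcl2l11 over the 9 libraries, among 14963 genes averaging 1 CPM or more, were Loxl2, Rims3 and Fam107a. The measure was the root mean square difference of log2 CPM after centring each gene, which was 0.144, 0.168 and 0.173, where the Bcl2l11 profile itself had a root mean square of 0.402. Loxl2, a collagen cross-linking oxidase, stood at 10.2, 5.97 and 7.25 CPM in Control 1, 2 and 3 and at 5.07 to 6.04 CPM in the inhibitor libraries. Rims3 stood at 13.9, 7.45 and 9.98 CPM in Control and at 6.13 to 8.66 CPM in the inhibitor libraries. Fam107a stood at 8.42, 3.53 and 5.52 CPM in Control and at 3.10 to 4.60 CPM in the inhibitor libraries. Since the 3 were picked for their likeness to Bcl2l11, the library order they share with it is set by the choice.

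The Bcl2l11 promoter is shown because this member had the smallest p and because FOXO transcription factors are known to act on it. RefSeq lists a pair of starts for the gene, and the sequence is that of the 250 bases before the first, chr2:128125788-128126037 on the plus strand of GRCm38.p6. Capitals mark each GC box (GGGCGG) and each FOXO core (TGTTTAC), searched on both strands.
Bcl2l11 promoter: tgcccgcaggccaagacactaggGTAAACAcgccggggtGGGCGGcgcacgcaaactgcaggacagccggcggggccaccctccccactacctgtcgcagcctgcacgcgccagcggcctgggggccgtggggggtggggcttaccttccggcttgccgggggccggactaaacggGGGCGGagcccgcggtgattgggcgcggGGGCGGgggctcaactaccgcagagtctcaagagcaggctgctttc

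This window held 3 GC boxes, which 32.7% of 32851 mouse promoter windows of the same length hold at least once, and 1 FOXO core on the minus strand, which 3.17% hold. Its GC content was 72.0%, where the median window had 52.4%. None of the 13 other windows listed for members held a FOXO core in these letters. That of the other Bcl2l11 start, chr2:128127325-128127574, was among them, so the core was not in all windows of this gene. A match describes letters and is no evidence of binding. Foxo1 had a log2 fold change of -0.20 ± 0.12 after AZ82 and -0.13 ± 0.12 after CW069, and Foxo3 had -0.08 ± 0.09 and -0.07 ± 0.09, with none at an unadjusted p under 0.05.

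The other BH3-only members were Bad and Bid. Bad, which binds pro-survival proteins and is held inactive by phosphorylation, was the most abundant pro-death member per kb. It stood at 29.5, 34.5 and 34.9 CPM in Control, at 33.8, 34.2 and 29.2 CPM after AZ82, and at 34.24, 30.04 and 30.21 CPM after CW069. Each group held high and low libraries and all 3 overlapped. In the fit Bad had a log2 fold change of -0.03 ± 0.10 after AZ82 (95% interval -0.24 to 0.19) and -0.07 ± 0.10 after CW069 (-0.28 to 0.15). Gpr137, its partner on the opposite strand, stood at 96.0 to 109 CPM in Control, 103 to 111 after AZ82 and 112 to 114 after CW069.

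Bid, which caspase 8 cleaves to link death receptors to mitochondria, had the largest value above 0 against Control. It stood at 3.38, 5.58 and 3.66 CPM in Control, at 5.97, 4.21 and 5.84 CPM after AZ82, and at 4.66, 5.13 and 3.35 CPM after CW069. AZ82 1 and AZ82 3 lay above all Control libraries, and AZ82 2 lay among them. Against Control, Bid had a log2 fold change of 0.34 ± 0.24 after AZ82 (-0.19 to 0.86; edgeR adjusted p = 0.663), from 0.21 without Control 1 to 0.59 without Control 2 (unadjusted p = 0.0291), and 0.05 ± 0.24 after CW069 (-0.48 to 0.58), from -0.09 without Control 1 to 0.31 without Control 2. Bcl2l13, which overlaps Bid, was steady between 42.6 and 47.4 CPM over the 9 libraries.

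The effectors were Bax, Bak1 and Bok. Bax stood at 7.18, 6.35 and 6.98 CPM in Control, at 4.58, 8.35 and 5.99 CPM after AZ82, and at 6.30, 6.43 and 6.53 CPM after CW069. The AZ82 libraries held both the lowest and the highest value of all 9, and the CW069 libraries were the tightest, so the means of 6.84 ± 0.431, 6.31 ± 1.91 and 6.42 ± 0.116 CPM (SD, n = 3 each) differ little against the AZ82 spread. Bax had a log2 fold change of -0.11 ± 0.19 after AZ82 (-0.53 to 0.30) and -0.09 ± 0.19 after CW069 (-0.50 to 0.32). For AZ82 it turned to 0.07 without AZ82 1 and was -0.37 without AZ82 2 (unadjusted p = 0.0422).

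Bak1, which resides in the mitochondrial membrane, was the effector that differed least. It stood at 13.25, 13.99 and 14.83 CPM in Control, at 15.93, 12.71 and 14.07 CPM after AZ82, and at 13.22, 13.003 and 14.60 CPM after CW069. The groups overlapped throughout. Its log2 fold change was 0.02 ± 0.11 (-0.22 to 0.26) after AZ82 and -0.04 ± 0.11 (-0.28 to 0.20) after CW069, and the former turned to -0.06 when libraries were scaled by their totals alone. Ggnbp1, which overlaps Bak1, stood at 461 to 525 CPM in Control, 468 to 543 after AZ82 and 448 to 479 after CW069. AZ82 1 and then Control 3 were the highest libraries of both genes. The part of shared reads in the Bak1 level was not tested.

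Bok, a Bax-like effector less dependent on the BH3-only proteins, rested on few reads, 37 to 58 counts per library. It stood at 4.004, 3.14 and 2.66 CPM in Control, at 2.98, 2.64 and 3.18 CPM after AZ82, and at 2.94, 2.60 and 2.10 CPM after CW069. CW069 2 and CW069 3 lay below all Control libraries and CW069 1 did not. For Bok the log2 fold change was -0.36 ± 0.21 after CW069 (-0.82 to 0.10; edgeR adjusted p = 0.714), from -0.49 without Control 3 (unadjusted p = 0.0484) to -0.19 without Control 1, and -0.15 ± 0.21 after AZ82 (-0.61 to 0.30), which turned to 0.01 without Control 1.

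Among the pro-survival members, Bcl2l2 had the smallest p with either inhibitor. It stood at 34.6, 33.6 and 35.2 CPM in Control, at 28.7, 29.1 and 31.8 CPM after AZ82, and at 30.9, 31.5 and 28.6 CPM after CW069. All 6 inhibitor libraries lay below all 3 Control libraries. The level was 13.3% lower after AZ82, with a log2 fold change of -0.21 ± 0.07 (-0.37 to -0.05; edgeR adjusted p = 0.554, unadjusted 0.0157). It was 11.9% lower after CW069, with -0.18 ± 0.07 (-0.34 to -0.03; edgeR adjusted p = 0.646, unadjusted 0.0269).

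The difference of Bcl2l2 was small and kept its size. With each library left out it ran from -0.25 to -0.18 for AZ82 and from -0.21 to -0.14 for CW069, while the unadjusted p was under 0.05 in 16 and 13 of 18 alternatives. DESeq2 was among those where it was not, with an unadjusted p of 0.0505 for AZ82 and 0.0809 for CW069. The raw counts of 501 to 529 per Control library and 394 to 504 per inhibitor library gave a ratio of summed CPM of 0.867 (counting interval 0.804 to 0.935) and 0.878 (0.817 to 0.944). Spread in Control was an SD of 0.03 on the log2 scale, against 0.14 for the median gene. The nearest tested neighbours of Bcl2l2 on chromosome 14 were Ppp1r3e and Pabpn1. Ppp1r3e, a glycogen phosphatase subunit, had -0.55 ± 0.26 after AZ82 and -0.30 ± 0.25 after CW069. Pabpn1, a poly(A)-binding protein, had 0.17 ± 0.23 and 0.25 ± 0.23.

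Markers of several cell types separated the same libraries, fully or in part. The summed level of 10 Leydig markers was 1840 to 1972 CPM in Control, 1564 to 1899 after AZ82 and 1490 to 1557 after CW069, with AZ82 2 within the Control range. That of 12 spermatogonial markers was 602 to 615 CPM in Control, 534 to 562 after AZ82 and 544 to 586 after CW069, with all 6 inhibitor libraries below Control. In the other direction, 12 round spermatid markers summed to 2265 to 2569 CPM in Control, 2648 to 2814 after AZ82 and 2641 to 2788 after CW069, with all 6 inhibitor libraries above Control and 12 of 12 fold changes above 0 in both comparisons. No marker of these 3 lists was at 0. Their part in the Bcl2l2 result was not tested.

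Bcl2 itself was near the limit of detection. It stood at 1.04, 1.35 and 0.998 CPM in Control (15, 21 and 15 counts), at 0.0728, 0.428 and 0.866 CPM after AZ82 (1, 6 and 12 counts), and at 1.03, 0.753 and 0.965 CPM after CW069 (15, 11 and 17 counts). Every AZ82 library lay below every Control library, AZ82 1 by far the most, while CW069 1 lay among the Control libraries. Over each group, 51 counts in Control stood against 19 after AZ82 and 43 after CW069, ratios of summed CPM of 0.404 (counting interval 0.225 to 0.696) and 0.812 (0.528 to 1.24).

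In the fit, Bcl2 had a log2 fold change of -1.29 ± 0.50 after AZ82 (-2.40 to -0.18; edgeR adjusted p = 0.554, unadjusted 0.0271). It was -0.80 without AZ82 1 (unadjusted p = 0.0642) and -2.13 without AZ82 3, so its size turns on single libraries. After CW069 it was -0.30 ± 0.44 (-1.27 to 0.68), an interval that spans both a lower and a higher level by more than 1.5-fold. That width takes in the spread of the AZ82 libraries, since the fit shares 1 spread over the 3 groups. With only Control and CW069 fitted the value was -0.29 ± 0.27.

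Bcl2l1, the most abundant member, was level across groups. It stood at 104, 98.6 and 114 CPM in Control, at 115, 93.5 and 103 CPM after AZ82, and at 101, 107 and 115 CPM after CW069. The groups overlapped fully. Its log2 fold change was -0.02 ± 0.09 after AZ82 (-0.22 to 0.18) and 0.03 ± 0.09 after CW069 (-0.17 to 0.23), so a difference of 1.5-fold lies outside both intervals. The value for CW069 turned to -0.02 when libraries were scaled by their totals alone.

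Mcl1, a short-lived protein that needs steady transcription, was a little lower in most inhibitor libraries. It stood at 76.5, 74.2 and 77.2 CPM in Control, at 70.7, 71.7 and 74.7 CPM after AZ82, and at 68.5, 72.0 and 73.4 CPM after CW069. The CW069 libraries lay below all Control libraries, and AZ82 3 lay among them. Mcl1 had a log2 fold change of -0.07 ± 0.06 after AZ82 (-0.20 to 0.06) and -0.09 ± 0.06 after CW069 (-0.22 to 0.04; edgeR adjusted p = 0.746). Both differences were larger than the SD within a group (0.03 to 0.05 on the log2 scale) but did not reach an unadjusted p of 0.05 in edgeR.

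The sums over each class give a description of the balance at the transcript level, with no test, and they count RNA and not protein. Pro-death members summed to 79.0, 73.2 and 77.6 CPM in Control, to 72.5, 71.5 and 68.0 CPM after AZ82, and to 69.8, 66.7 and 65.7 CPM after CW069, so both inhibitor groups lay below Control. Summed per kb they were 27.9 ± 0.560, 26.9 ± 1.09 and 25.8 ± 0.924 CPM per kb (SD, n = 3 each), where the AZ82 libraries overlapped Control and the CW069 libraries lay below it. Most of the gap in CPM was Bcl2l11. It made up 27.4% of the pro-death sum in Control 1, 13.2% in Control 2 and 18.9% in Control 3, and 12.2% to 14.4% in the inhibitor libraries. Without it the sums were 61.3 ± 3.46 CPM in Control, 61.2 ± 2.63 after AZ82 and 58.5 ± 2.52 after CW069 (SD, n = 3 each), and the groups overlapped.

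Pro-survival members summed to 217 ± 9.71 CPM in Control, 206 ± 10.3 after AZ82 and 210 ± 8.20 after CW069, with overlap. Bcl2l1 and Mcl1 gave 83.6%, 85.3% and 85.1% of these sums. The ratio of the pro-survival to the pro-death sum was 2.83 ± 0.0970 in Control, 2.92 ± 0.184 after AZ82 and 3.12 ± 0.218 after CW069, and the libraries of the 3 groups overlapped. Per kb the ratio was 1.90 ± 0.0607, 1.89 ± 0.143 and 1.99 ± 0.143, so the AZ82 mean was above Control in CPM and below it per kb. The ratio of Bax to Bcl2l1, in CPM, was 0.0650 ± 0.00398, 0.0625 ± 0.0250 and 0.0599 ± 0.00276 in the same order, with the widest spread after AZ82.

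**Figure D4:**
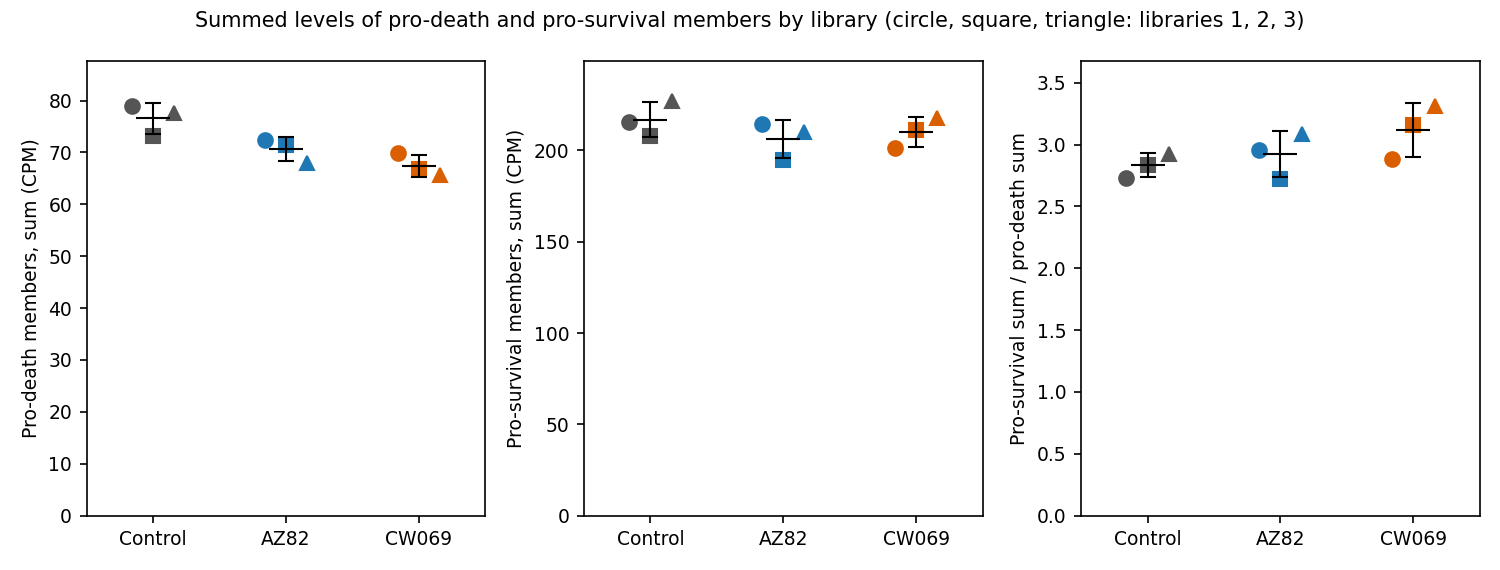
Summed CPM of the 6 pro-death members (left), of the 4 pro-survival members (middle) and their ratio (right) in each library; circles, squares and triangles are libraries 1, 2 and 3, and black bars give the mean ± SD of 3 libraries. The pro-death sum ran from 73.2 to 79.0 CPM in Control and from 65.7 to 72.5 CPM in the inhibitor libraries, while the pro-survival sums overlapped.

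CW069 against AZ82 asks whether the members differed between the inhibitors, which were given at unequal doses, 50 µM and 1 µM. No member had an unadjusted p under 0.05 (0 of 10, where 4.97% of all genes did, 2.58% as higher and 2.39% as lower genes). Groups overlapped for all 10, where 5.52% of all genes did not overlap as higher and 5.8% as lower genes, and 6 of 10 were below 0, against 50.4%. Over all genes, 0 (0%) passed the adjusted threshold in edgeR against 787 at the unadjusted p, 13 in DESeq2 and 0 in limma-voom. Bcl2 showed the largest value, 0.99 ± 0.52 (95% interval -0.15 to 2.13; edgeR adjusted p = 0.999), higher after CW069 and resting on the 19 reads of the AZ82 libraries. It was 1.83 without AZ82 3 (unadjusted p = 0.00751). Bcl2l11 differed by -0.08 ± 0.24 (-0.60 to 0.45) and Bcl2l2 by 0.02 ± 0.07 (-0.14 to 0.18). The SE of Bcl2l11 takes in the spread of Control, which is not compared here, since the fit shares 1 spread over the 3 groups. On the log2 scale the SD of Bcl2l11 was 0.56 in Control, 0.04 after AZ82 and 0.08 after CW069. The 95% interval lay within 1.5-fold for 6 of 10 members, Bax, Bak1, Bad, Bcl2l1, Bcl2l2 and Mcl1, and not for Bok, Bid, Bcl2l11 and Bcl2. It did so for 11261 of all 15834 genes tested.

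Around the 10 members, 74 further genes of the pathway were listed, of which 64 passed the filter on low counts. After AZ82, 4 of the 64 had an unadjusted p under 0.05, a share under the 8.84% of all genes in either direction. All 4 were lower and 0 were higher, against 4.79% and 4.04% of all genes. The lower share was thus only a little above that of all genes. After CW069 there were 3, a share under the 7.34% of all genes in either direction. All 3 were lower and 0 were higher, against 3.71% and 3.63% of all genes, and the lower share was again only a little above. Counts this small and this near the shares of all genes are not read as a result about the pathway. None passed the adjusted threshold, and the median log2 fold change of the 64 was -0.06 in both comparisons, with 37 and 47 of them below 0, against 50.3% and 51% of all genes.

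Of the other BH3-only genes, Bnip3, a mitochondrial protein known for mitophagy and hypoxia, had the smallest p of its list with either inhibitor. It stood at 17.9, 14.6 and 15.8 CPM in Control, at 9.97, 13.4 and 11.2 CPM after AZ82, and at 13.7, 11.8 and 11.5 CPM after CW069. All inhibitor libraries lay below all Control libraries. Its log2 fold change was -0.49 ± 0.13 after AZ82 (edgeR adjusted p = 0.554, unadjusted 0.00390) and -0.39 ± 0.13 after CW069 (edgeR adjusted p = 0.568, unadjusted 0.0133). The p53 targets Bbc3 (known as Puma) and Pmaip1 (known as Noxa) had values between -0.07 and 0.19 and overlapped with Control.

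Downstream of the mitochondria, 1 of 11 genes of cytochrome c release and the apoptosome had an unadjusted p under 0.05 with each inhibitor. That share was near that of all genes in either direction (8.84% and 7.34%). Of all genes, 4.79% and 3.71% were lower at that p. After AZ82 the gene was Vdac1, a channel of the outer membrane (-0.24 ± 0.08). After CW069 it was Aifm1, the apoptosis-inducing factor (-0.31 ± 0.10). Of 8 caspases tested, Casp2, an initiator linked to mitotic errors, stood at 15.81, 14.95 and 16.30 CPM in Control and at 13.42, 11.02 and 14.14 CPM after CW069 (-0.28 ± 0.11; edgeR adjusted p = 0.654). It was the only caspase at an unadjusted p under 0.05, and 0 reached it after AZ82. None of the 9 inhibitors of apoptosis tested had an unadjusted p under 0.05 with either inhibitor of KIFC1. With 8.84% and 7.34% of all genes at that p, lists of this size are too short to differ from that share.

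In the death receptor list of 14 tested genes, Tnfrsf1a, the main receptor for tumour necrosis factor, was lower after AZ82 at -0.26 ± 0.09, with 16.6, 16.5 and 17.4 CPM against 20.6, 19.1 and 21.0 CPM in Control. Among 11 upstream regulators, Mapk9, a JNK kinase that phosphorylates BH3-only proteins, was lower after AZ82 at -0.24 ± 0.08, with 36.8, 37.3 and 42.9 CPM against 46.9, 45.6 and 45.4 CPM in Control. For both genes the AZ82 libraries did not overlap Control, as was the case for 8.62% of all genes in that direction. Each was the only gene of its list at an unadjusted p under 0.05 after AZ82, which 8.84% of all genes reached. After CW069 there were 0 in both lists, against 7.34% of all genes. Trp53 (p53) had -0.17 ± 0.10 after AZ82 and -0.09 ± 0.10 after CW069. The 10 listed genes left out by the filter had at most 10 counts in any library and include Hrk, Bcl2l10 and 3 copies of Bcl2a1.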

How the data were processed

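Whole testis RNA was sequenced from 9 libraries, 3 per group. The authors deposited raw counts of reads per gene, with no normalization. Per the submitters' processing notes, Trimmomatic, HISAT2, HTSeq and the build GRCm39 were used, and the settings, the strand setting of the counting among them, are not given in the sources used here. The kit was a stranded mRNA kit, per the labels' protocols. The counts deposited per library and those in the table of all libraries were equal for all 19991 genes, and no pair of libraries was identical.

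A filter on low counts (filterByExpr, by group) kept 15834 genes. After TMM scaling, edgeR 4.0.16 under R 4.3.3 was used to fit 1 mean per group to the 9 libraries together, leaving 6 residual degrees of freedom. Each gene had 1 estimate of spread for the 3 groups, moderated over all genes. Tests and intervals also use the degrees of freedom that this moderation adds. The two-sided quasi-likelihood F test was used for 3 comparisons, with Benjamini-Hochberg adjustment over all genes tested and a gene called at an adjusted p under 0.05. Levels are TMM-scaled CPM computed from the deposited counts. Levels per kb use the union of exons in GENCODE M21, an annotation of the earlier build GRCm38, in which 19143 symbols were found; it also gave exon overlaps and coding sequences. Promoter sequences are RefSeq's for GRCm38.p6. For the median gene, the 95% interval against Control reached 0.28 on the log2 scale to either side. Counting intervals are exact binomial 95% intervals on summed reads and cover counting error only.

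All 10 members are named in each comparison. Pathway genes are named where they were among the 3 smallest p of a list at an unadjusted p under 0.05. Bbc3, Pmaip1, Trp53, Foxo1 and Foxo3 were chosen after their values were seen. The members and the lists were chosen with earlier results of these data known. The script was tested on simulated counts. Alternatives were other scaling (RLE, library size alone), filters, DESeq2 1.42.0, limma-voom (limma 3.58.1), robust dispersion, a replicate block, the compared groups alone, each library left out and, added after seeing the data, another gene length.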

Additional observations from a re-analysis of the deposited data

How the results depend on the processing

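Of 540 values of members over 18 alternatives, 512 kept their direction and their side of the adjusted threshold and none passed it; the smallest edgeR adjusted p was 0.0899, for Bcl2l11 after CW069 without Control 2. The 28 reversals were in 14 of 30 results and reached at most 0.16 on the log2 scale. Scaling by library size alone gave -0.059 for Bak1 after AZ82, -0.021 for Bcl2l1 after CW069 and 0.011 for Mcl1 in CW069 against AZ82. It moved the median of all genes to -0.08, -0.05 and 0.03 and the share below 0 to 68.8%, 63.7% and 39.8%, from 50.3%, 51.0% and 50.4%, with 9, 9 and 5 members below 0 in place of 8, 8 and 6. TMM set Control 3 at 1.09 and the other libraries at 0.973 to 1.02.

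With a library left out, values that crossed 0 ran, after AZ82, from -0.37 to 0.070 for Bax, -0.067 to 0.10 for Bak1, -0.29 to 0.015 for Bok, -0.10 to 0.045 for Bad and -0.10 to 0.047 for Bcl2l1. After CW069 they ran from -0.10 to 5.25e-05 for Bak1, -0.087 to 0.31 for Bid and -0.020 to 0.089 for Bcl2l1. In CW069 against AZ82 they ran from -0.16 to 0.28 for Bax, -0.14 to 0.024 for Bak1, -0.11 to 0.0013 for Bad, -0.017 to 0.13 for Bcl2l1, -0.0052 to 0.070 for Bcl2l2 and -0.043 to 0.012 for Mcl1.

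Genes called over all genes, 0 in each comparison, were 6, 28 and 13 with DESeq2 (AZ82, CW069, and CW069 against AZ82). They were 1, 1 and 0 with library size alone, 1, 0 and 0 with limma-voom, 1 with robust dispersion for AZ82, and 8 for CW069 against AZ82 when only those groups were fitted. With a library left out they were 0 to 4, 0 to 7 and 0 to 4. Members at an unadjusted p under 0.05 (3, 2 and 0) were 2 after AZ82 and 1 after CW069 with DESeq2, in both of which Bcl2l2 was lost, and 1 in CW069 against AZ82 with limma-voom, and 1 to 3, 1 to 2 and 0 to 1 with a library left out. With the replicate number as a block they were 3, 1 and 0. Same-numbered libraries did not deviate together (correlations of -0.15 to 0.04, against -0.09 to 0.17 for other pairs), so the numbers are not taken as pairs. Low counts limit Bcl2, Bok and Bid.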
